A study of Mus musculus with 2 samples.

Results

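The genes described here encode 10 lysosomal proteases of mouse myeloid cells, which are 7 cysteine cathepsins (Ctsb, Ctsc, Ctsh, Ctsk, Ctsl, Ctss and Ctsz), the serine carboxypeptidase cathepsin A (Ctsa), the aspartic protease cathepsin D (Ctsd) and the asparaginyl endopeptidase legumain (Lgmn). They were taken from a list of such genes, and every non-control probe whose identifier is a RefSeq transcript of one of them was used. This gave 12 probes of 39413 with a value on both arrays, and 10 genes of the 20653 that could be named. The arrays measured RNA of tumour-infiltrating M-MDSCs, the monocytic fraction of the myeloid-derived suppressor cells (MDSCs), taken from female BABL/c mice that had gone without food for a day and were then injected under the left armpit with 1000000 cells of the mammary carcinoma line 4T1. For 16 days the NSD group received chow with 0.4% NaCl and tap water, and the HSD group received chow with 4% NaCl and water with 1% NaCl. On day 16 the cells were collected from digested tumours with a magnetic bead kit, pooled in equal numbers within each diet and hybridised to 1 array per diet, so the spread between mice cannot be computed, no test of the diet was possible and no p-value is given.

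Lysosomal proteases are made as inactive precursors, carried to acidic endolysosomes largely by mannose 6-phosphate receptors, and activated there by cleavage. In phagocytes they digest engulfed and cellular proteins, trim the invariant chain and antigens for MHC class II, and cleave endosomal Toll-like receptors, while secreted forms degrade extracellular matrix. Cystatins, stefins and some serpins inhibit them. Legumain, which cuts after asparagine, also converts several cathepsins to their mature chains.

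The amounts below are processed signals in intensity units as extracted from the scans. Fold changes are HSD against NSD after each array was divided by its 75th percentile, 252 units (NSD) or 233 units (HSD). A gene is called lower or higher when its brightest probe differed by at least 1.5-fold (0.585 on the log2 scale). On each array all 12 probes were well above background, none of their spots was flagged, and no spot of either array was saturated. Each had 1 spot per array. The error given with a log2 fold change is that of the scanner software's error model, 0.20 for each of the 10 genes, and it covers the reading of a spot only.

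Legumain and cathepsins L and S were lower in the HSD group, and the other 7 genes differed by less than 1.5-fold. The Lgmn signal was 7000.5 with NSD and 1379 with HSD, a 4.69-fold decrease. Ctsl went from 16372 to 5453, a 2.77-fold decrease, and Ctss from 24546 to 9101, a 2.49-fold decrease. These 3 of 10 genes (30%) compare with 10.3% of the 16312 genes with a usable fold change that were at least 1.5-fold lower. None of the 10 was higher, against 9.86% of all genes. All 3 decreases were also past 2-fold, which 4.17% of all genes reached. The median log2 fold change was −0.23 for the 10 genes, 8 of them below 0, and 0.045 for all genes.

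**Figure D1:**
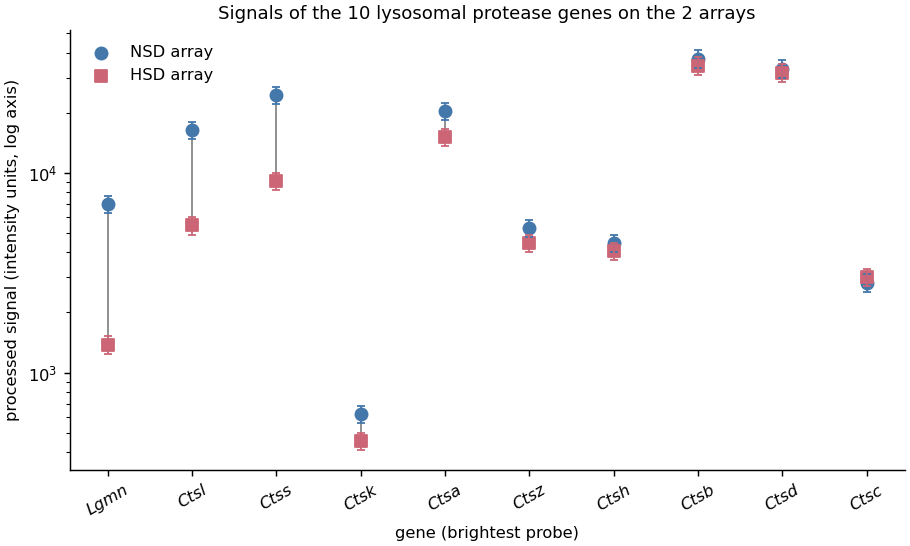
Processed signal (intensity units, log axis, before scaling) of the brightest probe of each gene on the NSD array (circles) and the HSD array (squares), with the software's error of 10.0% as bars. The lines between the arrays are long for Lgmn, Ctsl and Ctss and short for the other 7 genes. Heights of different genes come from different probes and are not comparable.

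Promoter sequences are shown for the 3 lower genes, to give the sequence in front of the transcripts that were lower, and for Ctsa and Ctsd, whose windows hold the extended E-box named below. Windows run from 250 bases before to 50 bases after a transcript start and come from the RefSeq annotation of GRCm38.p6, in which 8 of the 10 genes had 10 windows. They were not measured on these arrays, whose design was annotated on mm9. The sequences are written 5′ to 3′ on the strand of the gene, and capitals mark the motif matches.
Lgmn outer start, chr12:102439679-102439978, minus strand: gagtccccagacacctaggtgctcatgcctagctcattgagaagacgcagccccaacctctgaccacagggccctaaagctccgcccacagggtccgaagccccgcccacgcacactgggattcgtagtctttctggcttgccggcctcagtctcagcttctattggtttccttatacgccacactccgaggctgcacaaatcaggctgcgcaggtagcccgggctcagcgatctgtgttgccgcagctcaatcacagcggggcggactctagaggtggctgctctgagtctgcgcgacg
Lgmn inner start, chr12:102439043-102439342, minus strand: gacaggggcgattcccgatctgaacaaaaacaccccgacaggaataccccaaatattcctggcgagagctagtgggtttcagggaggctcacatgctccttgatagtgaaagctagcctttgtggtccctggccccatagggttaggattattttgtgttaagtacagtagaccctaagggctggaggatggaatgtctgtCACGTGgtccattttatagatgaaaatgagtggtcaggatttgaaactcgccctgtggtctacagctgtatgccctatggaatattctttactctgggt
Ctsl, chr13:64370471-64370770, minus strand: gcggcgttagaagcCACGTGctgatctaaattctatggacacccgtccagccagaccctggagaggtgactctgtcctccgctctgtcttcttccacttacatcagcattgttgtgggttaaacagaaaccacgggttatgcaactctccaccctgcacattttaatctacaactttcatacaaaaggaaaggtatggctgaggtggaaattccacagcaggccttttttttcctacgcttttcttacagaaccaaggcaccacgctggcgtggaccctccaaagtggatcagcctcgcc
Ctss, chr3:95526536-95526835, plus strand: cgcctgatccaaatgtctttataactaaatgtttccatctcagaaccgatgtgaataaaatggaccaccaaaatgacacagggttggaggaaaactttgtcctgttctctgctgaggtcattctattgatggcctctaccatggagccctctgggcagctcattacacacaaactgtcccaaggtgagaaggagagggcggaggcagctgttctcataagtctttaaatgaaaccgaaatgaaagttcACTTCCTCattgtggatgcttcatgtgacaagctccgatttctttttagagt
Ctsa inner start, chr2:164833523-164833822, plus strand: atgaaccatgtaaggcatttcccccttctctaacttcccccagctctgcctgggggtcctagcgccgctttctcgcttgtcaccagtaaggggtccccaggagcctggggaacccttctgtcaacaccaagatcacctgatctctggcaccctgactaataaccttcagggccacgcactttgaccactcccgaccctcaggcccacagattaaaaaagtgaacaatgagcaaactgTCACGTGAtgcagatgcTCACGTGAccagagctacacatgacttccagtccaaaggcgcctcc
Ctsd, chr7:142387778-142388077, minus strand: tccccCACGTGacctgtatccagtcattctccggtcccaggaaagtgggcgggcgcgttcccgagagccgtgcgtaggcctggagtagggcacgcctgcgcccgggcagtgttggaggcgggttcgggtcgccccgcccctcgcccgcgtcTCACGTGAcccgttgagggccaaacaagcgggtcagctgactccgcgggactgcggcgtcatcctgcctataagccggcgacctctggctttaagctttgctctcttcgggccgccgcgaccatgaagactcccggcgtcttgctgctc

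The letters searched, on both strands, were the E-box CACGTG, its extended form TCACGTGA, which contains it and is bound by TFEB and related regulators of lysosomal genes, the PU.1 motif GAGGAAGT, the AP-1 motif TGACTCA and the STAT motif TTCNNNGAA. The extended E-box was in 0.974% of all 32851 windows, and among the 10 windows it was in those of Ctsa, at 13 bases before and 4 bases after the inner start, and of Ctsd, at 99 bases before the start. Neither of these genes was called lower or higher. The shorter E-box was in 7.15% of all windows and in those of Ctsa, Ctsd, Ctsl and Lgmn (inner start). The Ctsl match lay 236 bases and the Lgmn match 49 bases before the start. PU.1 letters were in the windows of Ctss, 2 bases before the start, and of Ctsc, and in 3.20% of all windows. The AP-1 letters were in none of the 10 windows and in 5.20% of all, and the STAT letters were in that of Ctsc and in 8.30% of all. A match of letters is not evidence of binding.

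**Figure D2:**
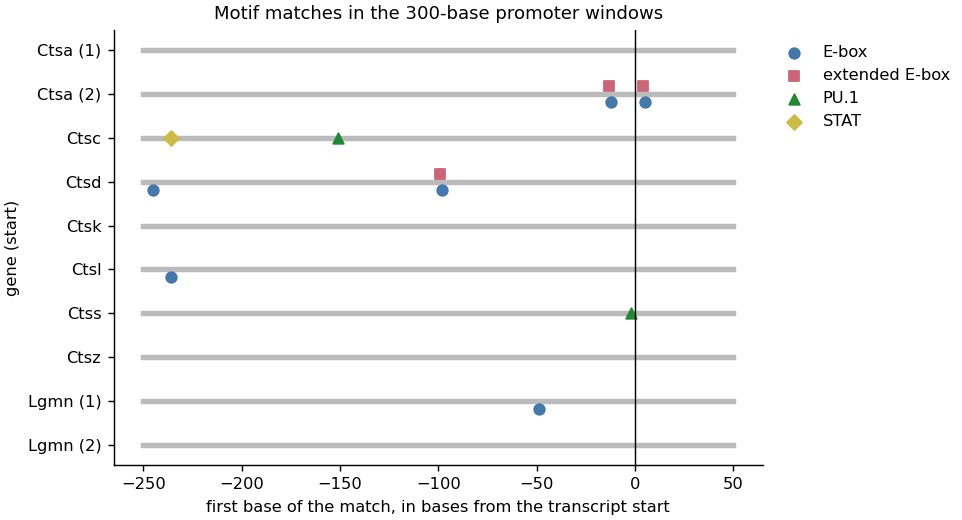
Position of each motif match (first base, in bases from the transcript start) in the 10 promoter windows of 8 genes, each drawn as a grey line of 300 bases with its start at 0. Extended E-boxes lie in the windows of Ctsa (start 2, the inner start) and Ctsd, and none of these motifs is shared by the windows of all 3 lower genes.

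Among the cysteine cathepsins, the decrease was found for the endopeptidases cathepsin L, which degrades proteins broadly in lysosomes and trims the invariant chain in some cells, and cathepsin S, which does so in antigen-presenting cells and is active at neutral pH. The log2 fold change was −1.47 ± 0.20 for Ctsl and −1.32 ± 0.20 for Ctss. Among all genes, 307 had a value as low as that of Ctsl or lower, and 400 as low as that of Ctss or lower. Cathepsin K, the collagen-degrading enzyme of osteoclasts, had 619 units with NSD and 455 with HSD. Its log2 fold change was −0.33 ± 0.20, below 0 by more than the software error. Ctsk and Ctss lie next to each other on chromosome 3, with no other protein-coding gene between them in the RefSeq annotation, and only Ctss was past 1.5-fold. The difference between them was not tested.

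Cathepsins B, C, H and Z stayed within 1.5-fold. Ctsb, whose product cuts within proteins and trims dipeptides from their ends, had signals of 37361 and 34444 and a log2 fold change of −0.0030. Ctsh, an aminopeptidase, had signals of 4466 and 4063 and a log2 fold change of −0.022. Ctsz, a carboxypeptidase also called cathepsin X, had signals of 5281 and 4437 and a log2 fold change of −0.14. None of these values exceeded the software error. Ctsc, the dipeptidyl peptidase that activates the serine proteases of granules, had the highest value of the 10 genes, with signals of 2819 and 3007 and a log2 fold change of 0.21. This was 1.15-fold above the NSD level, about as much as the software error.

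Of the proteases outside the cysteine cathepsin family, legumain had the lowest value of the 10 genes, with a log2 fold change of −2.23 ± 0.20. Its scaled signal in the HSD group was 21.3% of that in the NSD group, against 36.1% for Ctsl and 40.1% for Ctss, and 116 of all genes had a value as low or lower. Cathepsin D, the main aspartic protease of lysosomes, had 2 probes. The brighter had signals of 33235 and 31707 (log2 fold change 0.046) and the dimmer 1227 and 1114 (log2 fold change −0.026), so neither showed a difference beyond its error. Cathepsin A, which protects β-galactosidase and neuraminidase 1 in a complex, also had 2 probes. The brighter went from 20339 to 15115 (log2 fold change −0.31), and the dimmer had signals of 84.7 and 77.1 (log2 fold change −0.021). The Ctsa value was therefore below 0 by more than the software error on the brighter probe and by less on the dimmer one. The 3 lower genes had 1 probe each, so no second probe bears on them.

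**Figure D3:**
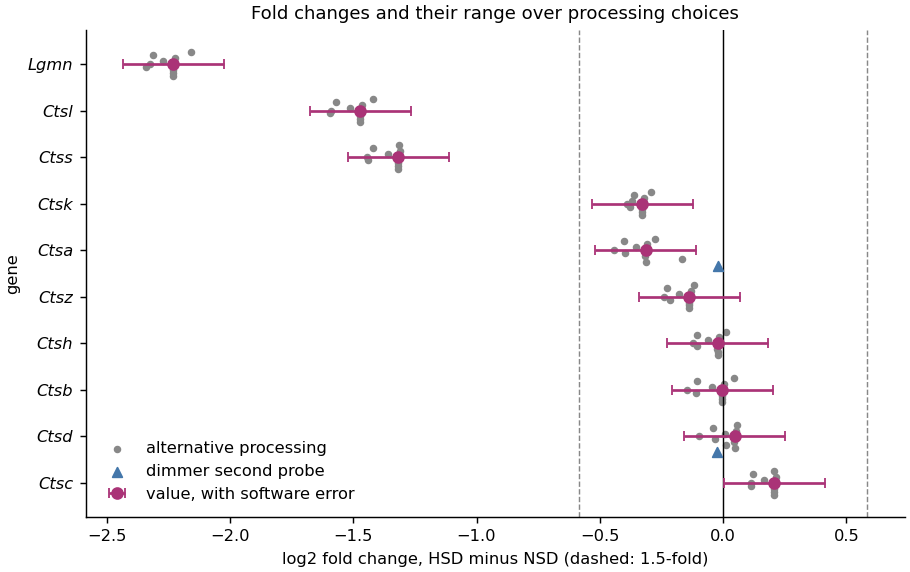
Log2 fold change (HSD minus NSD) of each gene, with the software error as bars, the values under 9 other processing choices as grey points and the dimmer probes of Ctsa and Ctsd as triangles. Lgmn, Ctsl and Ctss lie beyond the dashed 1.5-fold line in every case and the other 7 genes within it. The choices are alternatives on the same 2 arrays and not replicates.

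Noise between spots could be read from other probes, since 111 probes with signals in the range of the 10 genes were printed several times on an array. Spots of the same probe had a median SD of 0.059 on the log2 scale, and 0.474% of 8653 pairs of spots differed by 1.5-fold or more. Differences as large as that of Ctss were found in 13 pairs, as large as that of Ctsl in 9 pairs and as large as that of Lgmn in 0 pairs, the largest being 1.84. These pairs show the reading of a transcript within an array and give no measure of the variation between pools of cells.

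The 3 calls held under each of the 10 alternatives run for the counts. The log2 fold change was between −2.34 and −2.16 for Lgmn, between −1.60 and −1.42 for Ctsl and between −1.44 and −1.31 for Ctss. The values of Ctsb, Ctsd and Ctsh, all within 0.15 of 0, changed sign between the alternatives. Over all genes, 48.9% of the calls were in the higher direction after scaling on the 75th percentile and 38.5% under cyclic loess, with which the same 3 of the 10 genes were called lower.

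Of 14 cathepsin genes outside the 10, 7 had a usable fold change, with 2 lower and 0 higher. Ctsg, a serine protease of neutrophil and monocyte granules, went from 1733 to 807 (log2 fold change −0.99), and Ctsw, a cathepsin of NK and cytotoxic T cells, from 60.0 to 31.6 (log2 fold change −0.81). Ctse, an aspartic protease of endosomes in immune cells, had signals of 5750.0 and 4976 (log2 fold change −0.094), and Ctso, a cysteine cathepsin, had 186 and 169.7 units (log2 fold change −0.021). Ctsf (28.7 and 30.4 units), Ctsm (5.05 and 6.98) and Cts7 (14.8 and 10.4) were dim and within 1.5-fold, with log2 fold changes of 0.20, 0.58 and −0.39. The other 7, Ctsj, Ctsq, Ctsr, Cts3, Cts6, Cts8 and Ctsll3, most of them known as placental genes of rodents, were not well above background on either array. Of 7 serine proteases that cathepsin C activates, 2 were lower, Ctsg and the mast cell chymase Cma1, which had 11.7 units with NSD and a signal not well above background with HSD, at least 2.47-fold lower. Elane, neutrophil elastase, had signals of 1606 and 1412 (log2 fold change −0.071), and the granzymes Gzma and Gzmb and the mast cell protease Mcpt4 had log2 fold changes of −0.36, −0.44 and −0.23.

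Of 15 inhibitors with a usable fold change, 2 were higher, 2 lower and 11 within 1.5-fold, with a median log2 fold change of 0.25. The secreted inhibitor cystatin C (Cst3) had signals of 10781 and 11129 (log2 fold change 0.16), and stefin B (Cstb) 3459 and 3197 (log2 fold change 0.0007). Cystatin F (Cst7), which acts on cathepsin C, had signals of 109.9 and 136 and a log2 fold change of 0.42. Cstdc6, of the stefin A family, rose from 1142 to 3019 (log2 fold change 1.52). The other stefin A genes, Stfa1, Stfa2, Stfa3, Stfa2l1, Cstdc4 and Cstdc5, had log2 fold changes of 0.20, 0.18, 0.39, 0.32, 0.25 and 0.32, and as near-identical copies they may share target RNA between probes. Serpinb1a, an inhibitor of neutrophil serine proteases, rose from 8256 to 13663 (log2 fold change 0.84). Serpinb6a fell from 1022 to 549.7 (log2 fold change −0.78) and Serpinb6b from 56.8 to 23.6 (log2 fold change −1.15). The inhibitors of cathepsin L-like enzymes Ctla2a and Ctla2b had log2 fold changes of 0.19 and 0.30. Neither array had Cst6 well above background.

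Of 13 genes that sort enzymes to lysosomes, 1 was lower and none higher on the brightest probe. The lower gene was Gnptab, a subunit of the enzyme that starts the mannose 6-phosphate tag, which fell from 653 to 259 (log2 fold change −1.22). Its partner subunit Gnptg had a log2 fold change of 0.27, and the mannose 6-phosphate receptor Igf2r, read in 9 spots per array, had 0.34. The vesicle coat and retrieval genes Ap1m1, Vps35 and Gga1 had 0.43, 0.31 and −0.25, and the median of the list was 0.077. Dimmer probes differed from these values for Sort1, a sorting receptor, with 0.72 (221 and 337 units) against 0.0050 on the brighter probe, and for Gnptg, with −0.043. All 3 partners of cathepsin A were within 1.5-fold, with log2 fold changes of 0.13 for Glb1, −0.075 for Neu1 and −0.53 for Galns.

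The genes whose products work with cathepsin S and legumain in MHC class II presentation were measured as well, and 0 of 9 were called in either direction. Cd74, the invariant chain, had signals of 3321 and 3823 and a log2 fold change of 0.32. The class II chains H2-Aa and H2-Eb1 had 0.55 and 0.28, the peptide loading genes H2-DMa and H2-DMb2 had −0.15 and 0.27, and the thiol reductase Ifi30 had −0.38. Of 5 proteins cleaved in endolysosomes, 4 had a usable value and were within 1.5-fold, with log2 fold changes of −0.31 for Tlr7 (0.069 on its dimmer probe), 0.018 for Tlr9, 0.030 for Grn and −0.27 for Psap, while Tlr3 was not well above background. Among transcription factors of lysosomal and myeloid genes, Mitf and Tfe3, which bind E-boxes of lysosomal genes, had log2 fold changes of 0.52 and 0.49, Tfeb had −0.28, Irf1 had −0.37 and Tfec had −0.36. The dimmer Tfe3 probe had 0.61 and was past 1.5-fold, whereas the dimmer Mitf probe had 53.8 and 48.8 units and a log2 fold change of −0.028.

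Of 30 other lysosomal hydrolases and membrane proteins, 6 were lower (20.0%), with a median log2 fold change of −0.083, and the difference from the share among the 10 proteases was not tested. The lowest value was that of the sulfatase Ids (62.9 and 22.4 units, −1.38 on the log2 scale). Acp5, tartrate-resistant acid phosphatase, fell from 5488 to 2570 (log2 fold change −0.98) and on its other probe from 4862 to 2242. Naglu, Npc2, Pla2g15 and Gusb fell by 0.85, 0.71, 0.71 and 0.66 on the log2 scale. Ppt1, palmitoyl-protein thioesterase, rose from 495 to 1030.0 (log2 fold change 1.17). Dimmer probes of Acp2, Sgsh and Gaa were also lower and that of Lamp2 was higher, while the brighter probes of these genes were within 1.5-fold. The dimmer Gaa probe had 12.9 units with NSD and a signal not well above background with HSD.

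Markers of macrophages, cells that can be rich in cathepsins and legumain, were mostly lower with HSD, as were Lgmn, Ctsl and Ctss. Of 10 usable macrophage markers, 8 were lower and 0 higher, with a median log2 fold change of −1.96. The mannose receptor Mrc1 went from 134 to 5.49 units, the Fc receptor Fcgr1 from 305 to 21.9 and C1qc from 52.6 to 5.61. The HSD signals of Mrc1 and C1qc lay near the lowest signal well above background on that array, 4.39 units, so the size of their decreases is uncertain. The uptake receptor Mertk went from 95.9 to 15.4 units, Trem2 from 3348 to 669, the scavenger receptor Msr1 from 742 to 210.4 and Apoe from 7119 to 4337. Adgre1, which encodes F4/80, had signals of 6723 and 4252 and a log2 fold change of −0.55, within 1.5-fold, and C1qb had 0.33. With HSD, C1qa did not reach a level well above background, Vsig4 did so on neither array, and Cd68 had no named probe. The scaled signals of the list summed to 73.7 times the 75th percentile in the NSD group and 41.1 times in the HSD group. The bright probes of Apoe, Adgre1 and Trem2 make up most of this sum, so it is no measure of macrophage number. The part of macrophages in the values of Lgmn, Ctsl and Ctss was not tested. In pooled RNA, fewer cells of a type and less RNA per cell cannot be told apart.

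The labelled cell type was checked against its markers. The study defined M-MDSCs by CD11b and Ly-6C together. Itgam (CD11b) had signals of 31564 and 31043 and Ly6c1 had 51811 and 48478, and no named probe measured Ly6c2. Dimmer probes had log2 fold changes of −0.42 for Ly6c1 and of 0.47 and 0.073 for Itgam. CD11b also marks the granulocytic fraction of the MDSCs, so Itgam does not tell the 2 fractions apart. Whether Ly6c1 does was not tested. Neutrophil granule and alarmin genes were also bright, with 61817 and 59919 units for Camp and 57914 and 56478 for S100a8. The brightest non-control spots of the arrays had 80181 (NSD) and 77505 units (HSD). Of 10 neutrophil markers, 0 were past 1.5-fold (median log2 fold change 0.099), and Ly6g had no named probe. The share of granulocytic cells in the pools was therefore not determined, and these markers do not settle the label. Of 9 monocyte markers, 3 were higher and 1 lower, with a median log2 fold change of 0.018. The higher ones were Cx3cr1 (119 and 188 units), Vcan (374 and 550) and Chil3 (34255 and 49710). The lower one was Ccr2, which fell from 259 to 139 units. Of 6 usable osteoclast markers, 2 were lower, Acp5 and Atp6v0d2 (82.6 and 28.2 units), and the calcitonin receptor Calcr was not well above background.

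**Figure D4:**
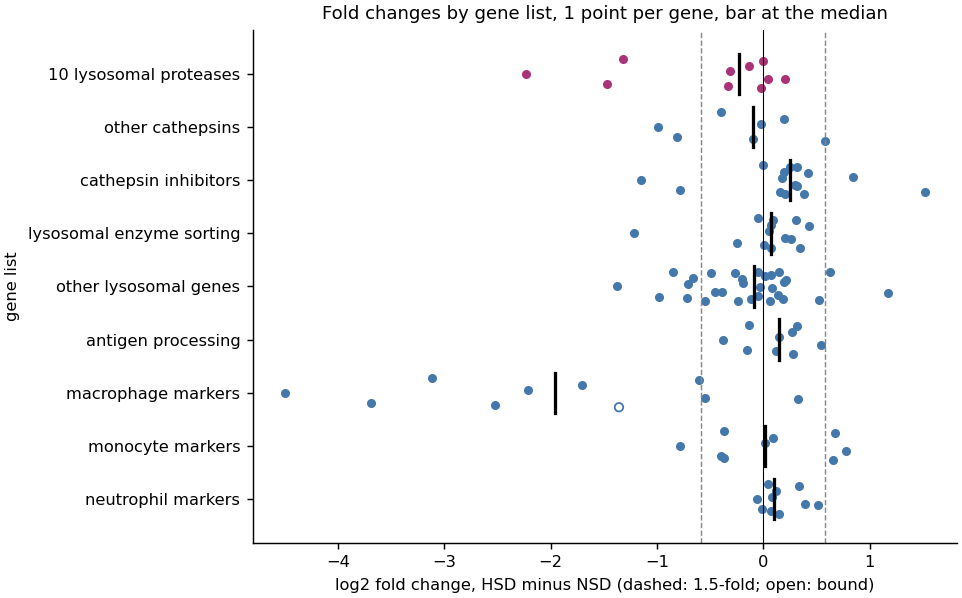
Log2 fold change (HSD minus NSD) of each gene with a usable value, 1 point per gene, for the 10 proteases, related gene lists and cell type markers, with a bar at the median of each list, dashed lines at 1.5-fold and open points for bounds. The macrophage markers lie mostly left of the dashed line (median −1.96), the 10 proteases have 3 points there, and neutrophil markers and antigen processing genes lie between the lines.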

How the data were processed

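RNA of pooled M-MDSCs was hybridised to Agilent 1-colour arrays, 1 per diet. The authors deposited scanner files, whose processed signal is an intensity after the background and trend correction of Agilent Feature Extraction 11.0.1.1, with the software's error and with the median brightness of spot and local background. The authors also deposited normalized log2 values, made with GeneSpring by a method not given in the sources used here. The sorted columns of that table differ by at most 0.052, with upper quartiles of 7.89 in both.

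Control spots and spots flagged as outliers were left out, log2 signals of a probe were averaged, and each array's 75th percentile was subtracted. For a probe well above background (in at least 50% of its spots) on only 1 array, the fold change was a bound, for which its dim signal was raised to at least the lowest signal well above background, 4.61 units (NSD) or 4.39 (HSD). RefSeq transcripts named 27223 of 39413 probes (69.1%). The probe with the highest mean log2 signal stood for its gene. Software errors of both arrays were combined in quadrature. Of all probes, 71.9% (NSD) and 72.4% (HSD) were well above background. With 1 array per diet, precision is limited by the number of arrays.

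Named were all 10 genes with all probes, every measured cathepsin and inhibitor, and up to 6 genes of each other pathway list by size of change. Gusb, the dimmer probes of other genes and the cell type markers given as examples were picked after their values were seen. The members and all lists were chosen with earlier results of these data known. Simulated data were used to check that the script recovers known changes. Alternatives were normexp correction with an offset of 50 on the median signals, quantile normalization, other scalings, cyclic loess, the deposited values, flagged spots kept, a 2-fold limit, the median over probes and a stricter filter. Normalizations ran in limma 3.58.1 under R 4.3.3, and all else in Python 3.11.15 (pandas 2.3.3, numpy 2.4.6, matplotlib 3.10.9). Probe and protein sequences were not used here. Some genes of the transcription factor and lysosomal lists are not reported here.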

Additional observations from a re-analysis of the deposited data

How the results depend on the processing

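The counts of 3 lower and 0 higher genes among the 10 were the same under each of the 10 alternatives, and Lgmn, Ctsl and Ctss were the genes called lower under each. For these 3 genes the median over probes and the stricter filter could not give another value. The median log2 fold change of the 10 genes was between −0.31 (cyclic loess) and −0.15 (median over probes), against −0.23 as reported. Each of the 10 genes moved by less than its own software error of 0.20. The share of all genes at least 1.5-fold lower was 4.07% with the normexp correction and 12.2% with cyclic loess. No scaling moved the median of all genes by more than 0.1, the largest shift being −0.069 with cyclic loess. No paired analysis was possible because each diet has 1 array, and for the same reason no replicate could be left out. Signal over background did not limit the 10 genes, but left 7 of the 14 other cathepsins and the inhibitor Cst6 without a fold change.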

Other observations

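All 6 B cell markers with a named probe had log2 fold changes above 0, with a median of 0.47, and 1 was past 1.5-fold, the antibody joining chain gene Jchain, which rose from 1205 to 2166 units. Of 8 usable markers of carcinoma cells, 3 were higher, Krt18, Epcam and Krt8, with 14.5 and 21.8 units for Epcam, and 0 were lower. The brightest of these markers, Krt5 and Cdh1, had log2 fold changes below 0, −0.54 and −0.43, within 1.5-fold. Wfdc2 had −0.14, so 3 of the 8 values were below 0. Of 8 usable T and NK cell markers, 0 were higher and 1 lower, Cd3e (115 and 49.8 units). The other CD3 subunits were within 1.5-fold and differed in direction. The brighter Cd3d had 1501 and 1871 units (log2 fold change 0.43), and Cd3g had a log2 fold change of −0.35. Cd4 had 0.33. The median of the list was −0.099, with 4 of the 8 values below 0.

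Of 8 usable dendritic cell markers, 2 were higher and 2 lower, with a median log2 fold change of 0.023. The higher ones were Itgax (173 and 267 units) and Clec9a (6.93 and 11.1). Of the lower ones, Cd209a had 14.3 units with NSD and a signal not well above background with HSD. The other lower one, Clec10a, a lectin of dendritic cells and macrophages, fell from 174 to 47.2 units. Of 6 usable fibroblast markers, 1 was higher and 2 lower. The higher one was Pdgfrb (26.1 and 36.4 units), and the lower ones were dim, Col3a1 with 11.1 and 4.81 units and Dcn with 9.82 and 5.20. None of 6 usable endothelial markers was past 1.5-fold on the brightest probe, although the dimmer Kdr probe, printed in 10 spots, went from 124 to 20.4 units. Of 5 usable erythroid markers, 1 was lower, Hbb-bs, with 212 and 124 units, while Hba-a1 had 10273 and 10843.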
